A study of Mus musculus with 6 samples.

Results

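A set of 10 genes of the endoplasmic reticulum (ER) stress response and the integrated stress response were followed in ribosome-bound RNA from the injured mouse spinal cord: Atf4, Ddit3, Trib3, Asns, Chac1, Ern1, Xbp1, Atf6, Hspa5 and Herpud1. They were chosen by symbol for their place in these pathways, with earlier results of these data known. All 10 had a row among the 13940 gene symbols of the authors' unfiltered table. Samples came from the injury site after a contusion at T8, a thoracic level of the cord, and 3 libraries were made at each of 2 times, 3 and 7 days after the injury. All 6 came from chimeras labelled LysMCre:Rplfl/fl > CD45.1, of strain CD45.1, and the age of the animals is not given in the sources used here. RiboTag is a method in which Cre recombinase switches on an epitope-tagged ribosomal protein, so that ribosomes of Cre-expressing cells can be immunoprecipitated with the RNA they carry. LysM-Cre is active in macrophages, and also in monocytes and neutrophils, so the precipitate is not that of macrophages alone. The libraries were made with the ScriptSeq v2 kit, and no uninjured cord and no unprecipitated RNA was compared. The labels do not say whether libraries came from separate animals or from pools, so every p-value reflects no more than the scatter among the libraries. In such bulk samples fewer cells of a type and less RNA per cell cannot be told apart.

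Proteins of the secretory route fold in the ER, and a backlog of unfolded protein there is sensed by IRE1 (encoded by Ern1), by ATF6 and by the kinase PERK (Eif2ak3). IRE1 splices the messenger RNA of Xbp1, and ATF6 is cut by Golgi proteases; both steps yield transcription factors that raise chaperones such as BiP (Hspa5) and degradation factors such as Herpud1. PERK and the kinases of the integrated stress response, which also sense amino acid shortage, heme shortage and viral RNA, phosphorylate eIF2. This lowers general translation while translation of Atf4 rises, and ATF4 in turn raises Ddit3 (CHOP), Trib3, Asns and Chac1. In macrophages these pathways are known from secretion, lipid loading and survival under stress. Much of this control acts on splicing, protein cleavage and translation, which a gene-level measure does not show.

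The regulatory DNA of the members was read from RefSeq promoters (GRCm38.p6), taking the 250 bases before each start; 9 of the 10 matched, and Atf6 had no entry. A set of 4 short elements known from these pathways were searched on both strands. They were the ER stress response element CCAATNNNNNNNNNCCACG, its second form ATTGGNCCACG, the XBP1-type element TGACGTGG and the C/EBP-ATF element TGATGNAA, to which ATF4 and CHOP are known to bind. The promoters of Hspa5, Asns and Ddit3 are shown because Hspa5 and Asns each carry one of the elements and Ddit3 and Asns are the genes called between the 2 times; capitals mark a match to an element.
Hspa5: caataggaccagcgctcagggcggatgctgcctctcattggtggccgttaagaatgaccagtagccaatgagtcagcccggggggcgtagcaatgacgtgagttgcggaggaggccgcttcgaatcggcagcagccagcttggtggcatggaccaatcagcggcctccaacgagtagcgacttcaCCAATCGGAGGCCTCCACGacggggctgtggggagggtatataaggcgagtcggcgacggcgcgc
Asns: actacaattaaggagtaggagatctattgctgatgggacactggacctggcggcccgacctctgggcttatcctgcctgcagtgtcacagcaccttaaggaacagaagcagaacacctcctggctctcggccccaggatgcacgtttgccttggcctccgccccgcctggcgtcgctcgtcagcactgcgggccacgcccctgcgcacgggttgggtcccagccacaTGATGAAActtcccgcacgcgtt
Ddit3: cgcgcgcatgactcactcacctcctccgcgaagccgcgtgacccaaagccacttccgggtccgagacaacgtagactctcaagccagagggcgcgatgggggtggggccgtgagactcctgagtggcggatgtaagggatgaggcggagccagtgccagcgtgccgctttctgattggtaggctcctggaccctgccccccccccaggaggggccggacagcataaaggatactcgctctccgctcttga
The Hspa5 bases are chr2:34771840-34772089 on the plus strand, those of Asns chr6:7693210-7693459 on the minus strand and those of Ddit3 chr10:127290543-127290792 on the plus strand, each written 5′ to 3′ along its gene. Positions count back from the RefSeq start, -1 being the base before it; the GENCODE M21 genes Hspa5, Asns and Ddit3 begin inside these windows.

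Hspa5 held the ER stress response element at -65 to -47, an element found in 0.113% of the 32851 RefSeq promoters of this length. The second form stood in Herpud1 at -52 to -42 as ATTGGGCCACG, against 0.0304% of all promoters. Asns held the C/EBP-ATF element at -23 to -16, and Chac1 (-193 to -186) and Herpud1 (-112 to -105) held it on the other strand as TTGCATCA; 3.45% of all promoters had it. The XBP1-type element was in none of the 9 members' windows and in 0.563% of all promoters. In Atf4, Ddit3, Trib3, Ern1 and Xbp1 none of these letters were found in this window. A match is a description of the sequence only.

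Levels are given as FPKM, a fragment count divided by transcript length and by the library's mapped fragments, as the authors deposited them. Differences are fitted as log2(FPKM + 1), 7 days minus 3 days, with limma and Benjamini-Hochberg adjustment over the 13042 genes tested; calls were made where the adjusted p did not exceed 0.05, and the + 1 understates changes of low genes. Of the 10 members, 9 were tested: Ddit3 was called higher at 7 days, Asns lower, and 7 were not called. Among all genes tested, 18.8% were called higher and 20.3% lower, 39.1% in all, a larger share than the 2 of 9 members (22.2%). The libraries of the 2 times did not overlap for Ddit3, Ern1 and Asns, 3 of 9 members, against 55.4% of all genes (26.8% with 7 days above and 28.6% below). The median log2 change was 0.03 over the tested members and -0.04 over all genes, and the median size of the change without its sign was 0.31 and 0.41. An exact test of 3 libraries against 3 cannot go below p = 0.1, so every call rests on limma's model of the log values. That model includes a variance shared across genes.

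**Figure D1:**
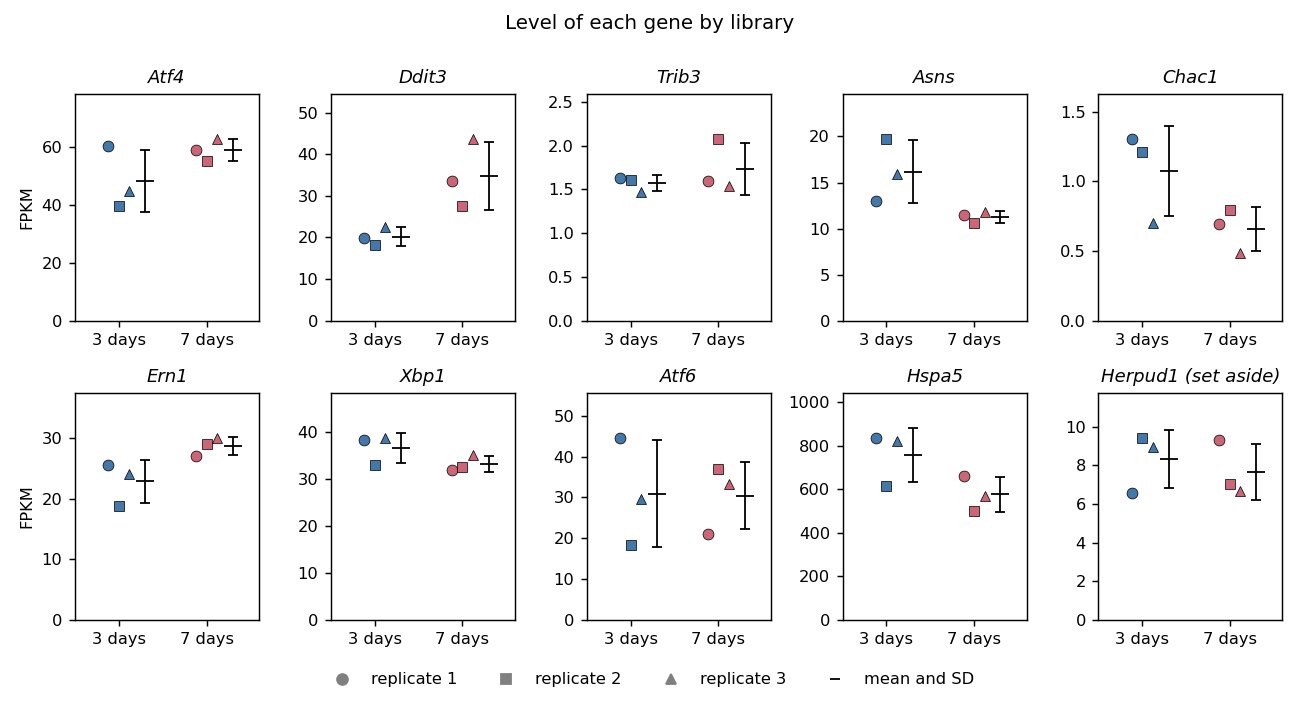
Level of each member in each library, in FPKM on a linear axis from 0 with its own scale per gene; symbols mark replicates 1 to 3 (numbers that do not pair libraries across times), and bars show the mean and SD of 3 libraries. The 7-day values of Ddit3 (27.5 to 43.6) and Ern1 (27.1 to 29.99) lie above and those of Asns (10.6 to 11.8) below all 3-day values, and in the other 7 genes the times overlap.

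The members' levels spanned a wide range, from Hspa5 at 757 FPKM to Chac1 at 1.07 FPKM at 3 days. On this per-length scale the order at 3 days was Hspa5, Atf4, Xbp1, Atf6, Ern1, Ddit3, Asns, Herpud1, Trib3, Chac1. At 7 days Ddit3 had passed Xbp1, Atf6 and Ern1 and stood at rank 3, where at 3 days it held rank 6; the other genes kept their order. Herpud1 is ranked here by its library values, which were set aside; the means in the authors' deposited table, 23.0 and 21.4 FPKM, would put it higher, between Atf6 and Ern1 at 3 days and between Ern1 and Asns at 7 days. Neighbours whose library ranges overlapped at 3 days were Xbp1 and Atf6, Atf6 and Ern1, Ern1 and Ddit3, and Ddit3 and Asns. At 7 days they were Ddit3 and Xbp1, Xbp1 and Atf6, and Atf6 and Ern1. Hspa5 and Atf4 ranked highest at both times, in that order. Neither overlapped in library range with the gene next in order, but replicate 1 of Atf6 at 3 days did reach into the range of Atf4. The ranking takes each row as deposited: that of Atf6 covers 10.1% of its gene, and those of Hspa5, Xbp1 and Ddit3 also span genes on the other strand.

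Atf4, the transcription factor at the head of the integrated stress response, stood at 60.3, 39.7 and 44.8 FPKM in the 3 libraries at 3 days and at 59.0, 55.0 and 62.7 FPKM at 7 days. Replicate 1 of the 3-day libraries was as high as the 7-day libraries, so the times overlapped. The means were 48.3 ± 10.7 and 58.9 ± 3.81 FPKM (SD, n = 3 each), and the log2 difference of 0.30 ± 0.16 (SE) did not pass (limma, adjusted p = 0.158, 95% interval -0.06 to 0.67). Without that 3-day library the log2 difference was 0.47 and passed (limma, adjusted p = 0.0179), and after quantile normalization it was 0.07 (limma, adjusted p = 0.772). Since Atf4 is controlled mainly in translation, its ribosome-bound RNA mixes the amount of message and the share of it on ribosomes, and these cannot be told apart here.

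Ddit3, which encodes the transcription factor CHOP, a promoter of cell death under lasting ER stress, rose. It stood at 19.8, 18.2 and 22.5 FPKM at 3 days and at 33.5, 27.5 and 43.6 FPKM at 7 days. All 7-day libraries lay above all 3-day libraries, and the spread was wider at 7 days. The means were 20.2 ± 2.21 and 34.9 ± 8.16 FPKM (SD, n = 3 each), 1.73-fold higher at 7 days, with a log2 change of 0.74 ± 0.17 (limma, adjusted p = 0.0143, 95% interval 0.34 to 1.15). Without replicate 2 of the 3-day libraries the log2 change was 0.67 and no longer passed (limma, adjusted p = 0.0511). In the authors' table the row spans 127290721 to 127311837 on chromosome 10 (mm10), which holds the whole Ddit3 gene and, on the other strand, Mars, the methionyl-tRNA synthetase. Whether counting used strand is not given in the sources used here. Mars itself stood at 14.5 ± 1.04 and 14.7 ± 1.02 FPKM (SD, n = 3 each), a log2 difference of 0.02 (limma, adjusted p = 0.872).

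Trib3 encodes a pseudokinase that CHOP and ATF4 are known to raise and that restrains ATF4 in turn. It was low at both times, at 1.64, 1.61 and 1.47 FPKM at 3 days and 1.59, 2.07 and 1.54 FPKM at 7 days. One 7-day library, replicate 2, was above the rest, and the others interleaved. The log2 difference was 0.08 ± 0.16 (limma, adjusted p = 0.691, 95% interval -0.29 to 0.46). After quantile normalization, which forces the 6 libraries to 1 distribution, the log2 difference was 0.61 and passed (limma, adjusted p = 0.0314), so for Trib3 the result turns on the scaling.

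Asns, asparagine synthetase, the amino acid enzyme most used as a readout of ATF4, fell. Its libraries read 12.97, 19.7 and 15.9 FPKM at 3 days and 11.5, 10.6 and 11.8 FPKM at 7 days. Each 7-day library was below each 3-day library, and the 7-day libraries lay close together. The means were 16.2 ± 3.38 and 11.3 ± 0.649 FPKM (SD, n = 3 each), 1.43-fold lower at 7 days, with a log2 change of -0.47 ± 0.16 (limma, adjusted p = 0.0493, 95% interval -0.83 to -0.10). The call is at the threshold: it was lost in 9 of 16 alternatives, with adjusted p from 0.0181 to 0.138 over all of them. It was lost without replicate 2 (0.101) or replicate 3 (0.111) of the 3-day libraries and without replicate 1 (0.104), 2 (0.138) or 3 (0.0966) of the 7-day libraries (limma, adjusted p). Ddit3 and Asns, both listed as targets of ATF4, were called in opposite directions. Their times did not overlap, which was so for 55.4% of all genes. Without replicate 2 at 3 days neither passed (limma, adjusted p = 0.0511 and 0.101).

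Chac1 encodes an enzyme that breaks down glutathione and is raised through ATF4 and CHOP. It was near the floor of what these libraries show, at 1.30, 1.21 and 0.703 FPKM at 3 days and 0.693, 0.795 and 0.484 FPKM at 7 days. Replicate 3 of the 3-day libraries fell among the 7-day values. The log2 difference was -0.31 ± 0.19 (limma, adjusted p = 0.218, 95% interval -0.76 to 0.13). After quantile normalization its sign turned, to 0.26 (limma, adjusted p = 0.323). Chac1 is the member without a row in the authors' filtered table.

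Ern1 encodes IRE1, the sensor whose ribonuclease splices Xbp1. It stood at 25.6, 18.7 and 24.2 FPKM at 3 days and at 27.1, 29.1 and 29.99 FPKM at 7 days. All 7-day libraries were above all 3-day libraries, by a small margin. The means were 22.9 ± 3.63 and 28.7 ± 1.46 FPKM (SD, n = 3 each), and the log2 difference of 0.33 ± 0.13 did not pass after adjustment (limma, adjusted p = 0.0838, 95% interval 0.02 to 0.64).

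Xbp1, the substrate of IRE1 and a transcription factor for secretory cells, was the steadiest member, at 38.3, 32.9 and 38.6 FPKM at 3 days and 31.8, 32.5 and 35.1 FPKM at 7 days. Its highest library was 1.21-fold above its lowest, and replicate 2 at 3 days fell among the 7-day libraries. The log2 difference was -0.14 ± 0.10 (limma, adjusted p = 0.305, 95% interval -0.37 to 0.10), and after quantile normalization it was -0.33 and passed (limma, adjusted p = 0.0393). The values are totals over the gene, and the spliced form was not measured separately. The row also spans Ccdc117 on the other strand.

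Atf6, the membrane-bound sensor that is cut in the Golgi, varied most at 3 days: 44.5, 18.4 and 29.7 FPKM, against 21.2, 36.9 and 33.3 FPKM at 7 days. The 3-day libraries held both the highest and the lowest value of the 6. The means were 30.9 ± 13.1 and 30.5 ± 8.26 FPKM (SD, n = 3 each), with a log2 difference of 0.03 ± 0.32 (limma, adjusted p = 0.947). The 95% interval, -0.73 to 0.79, is wide enough to hold a change as large as that of Ddit3. The sign turned after quantile normalization (-0.10) and without replicate 2 at 3 days (-0.29), replicate 2 at 7 days (-0.12) or replicate 3 at 7 days (-0.05). The authors' row for Atf6, chromosome 1 from 170851261 to 170868556, covers 10.1% of the 163098 bases of the GENCODE M21 gene; among 12029 tested genes with a match, 14.0% have a row covering under 50% of the gene.

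Hspa5 encodes BiP, the main ER chaperone of the Hsp70 family, which holds the sensors inactive when unfolded protein is scarce. It was the highest member in every library, at 834, 616 and 821 FPKM at 3 days and 659, 501 and 566 FPKM at 7 days. Replicate 2 at 3 days was below replicate 1 at 7 days, so the times overlapped. The means were 757 ± 122 and 575 ± 79.6 FPKM (SD, n = 3 each), and the log2 difference of -0.39 ± 0.18 did not pass (limma, adjusted p = 0.117, 95% interval -0.80 to 0.02). In the authors' deposited table Hspa5 has a q-value of 0.0404 with a log2 fold change of -0.40, which their own test calls; after quantile normalization limma called it too (log2 -0.61, adjusted p = 0.0489). The authors' q-values in their deposited table are at 0.05 or less for Ddit3 (0.0288), Asns (0.0221) and Hspa5, 3 of the 9 tested members, and for 38.4% of all genes tested. The row of Hspa5 also spans Rabepk on the other strand.

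Herpud1, a membrane protein that brings misfolded proteins to ER-associated degradation and carries both elements in its promoter, was set aside. Its library values were 6.59, 9.40 and 8.96 FPKM at 3 days and 9.34, 7.04 and 6.65 FPKM at 7 days, and the times overlap. Their means, 8.32 and 7.68 FPKM, miss the means in the authors' deposited table, 23.0 and 21.4 FPKM, so the 2 do not measure the same thing. The authors' deposited table gives a log2 fold change of -0.12 with a q-value of 0.734, and the library values tested regardless gave an adjusted p of 0.670 (limma). The unfiltered table places the row at 94393774 to 94395369 of chromosome 8, 17.9% of the gene, and the filtered table places the same library values at 94386460 to 94391066, 51.5% of it.

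**Figure D2:**
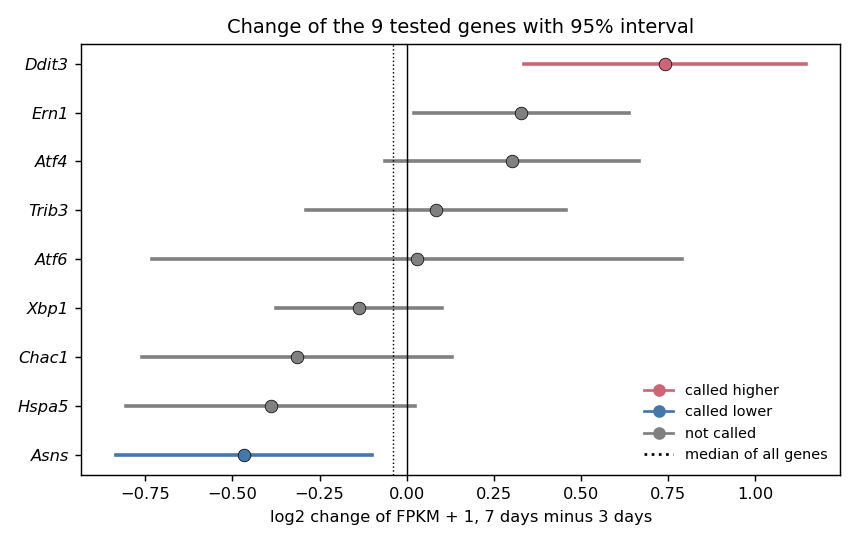
Fitted change of each tested member, 7 days minus 3 days, as log2 of FPKM + 1 on the x axis, with points for the estimate, bars for the 95% interval from limma (n = 3 against 3 libraries), and a dotted line at the median of all genes (-0.04). Ddit3 (0.74) and Asns (-0.47) are coloured as called; the interval of Ern1 (0.02 to 0.64) lies above 0 although it is not called after adjustment, and that of Atf6 is the widest.

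The 3-day libraries differed among themselves in these genes. Replicate 2 of the 3-day libraries had the lowest 3-day value of 6 of the 10 members (Atf4, Ddit3, Ern1, Xbp1, Atf6 and Hspa5) and the highest of 2 (Asns and Herpud1). Summed markers of neurons in that library reached 321 FPKM, against 138 and 147 FPKM in the other 3-day libraries and 41.8 to 54.9 FPKM at 7 days; those of astrocytes reached 567 FPKM against 199 and 245 FPKM, and 95.8 to 120 FPKM at 7 days. Oligodendrocyte markers summed to 310 to 623 FPKM at 3 days, again highest in that library, and 132 to 158 FPKM at 7 days. Of the tested markers, 7 of 7 neuronal, 7 of 7 oligodendrocyte and 5 of 6 astrocyte genes were called lower at 7 days. The 8 tested macrophage markers summed to 1737 to 2175 FPKM at 3 days and 2577 to 2852 FPKM at 7 days (5 higher, 2 lower). Monocyte markers summed to 431 to 506 FPKM and 167 to 221 FPKM (3 of 5 called lower). Endothelial (41.8 to 68.4, then 26.5 to 31.4 FPKM), fibroblast (100 to 252, then 96.6 to 177 FPKM) and Schwann cell markers (9.88 to 24.7, then 2.48 to 4.29 FPKM) had 5 of 7, 3 of 5 and 3 of 5 genes called lower. Erythroid markers summed to 135 to 174 FPKM at 3 days and 12.8 to 18.7 FPKM at 7 days (3 of 4 lower). Neutrophil markers summed to 86.0 to 98.6 FPKM and 81.2 to 98.9 FPKM, while 2 of the 8 tested were called higher and 3 lower, with a median log2 change of -0.73. Microglial markers summed to 93.1 to 108 FPKM and 136 to 162 FPKM (3 of 4 higher).

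Plasma cells are known for their large ER and high Xbp1. Markers of B and plasma cells summed to 8.18 to 9.95 FPKM at 3 days and 10.6 to 12.3 FPKM at 7 days over 3 tested genes, and Cd79a, Ms4a1, Mzb1, Tnfrsf17 and Pou2af1 had no row. T and NK cell markers summed to 1.13 to 2.39 FPKM and 1.97 to 3.205 FPKM. None of the tested markers of any list was at 0 in all libraries of a time. Lyz2, the gene whose promoter drives LysM-Cre, was set aside because 1 of the 7-day libraries lists it at 0 beside 9435 and 5862 FPKM in the others. Rpl22, the ribosomal protein tagged in RiboTag, stood at 47.2 ± 6.13 and 45.3 ± 4.94 FPKM (SD, n = 3 each; limma, adjusted p = 0.739), which does not check the tag itself. The part of cell makeup in the values of the 10 genes was not tested. Without replicate 2 at 3 days, the library highest in neural markers, the log2 differences were 0.67 for Ddit3, 0.20 for Ern1, 0.17 for Atf4, 0.09 for Trib3, -0.21 for Xbp1, -0.26 for Chac1, -0.29 for Atf6, -0.32 for Asns and -0.53 for Hspa5. None of these 9 passed, with Ddit3 (adjusted p = 0.0511) and Hspa5 (adjusted p = 0.0569, limma) closest.

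**Figure D3:**
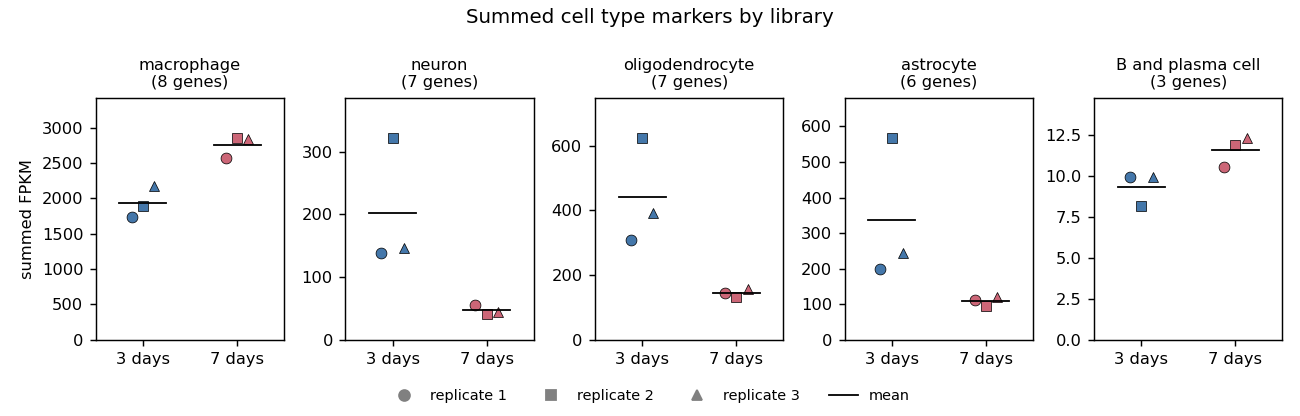
Summed FPKM of the tested markers of 5 cell types in each library, on linear axes from 0, with symbols for replicates 1 to 3 and a line at the mean. Neuronal, oligodendrocyte and astrocyte sums were highest in replicate 2 at 3 days (321, 623 and 567 FPKM) and low in all 7-day libraries, whereas macrophage sums were higher in all 7-day libraries (2577 to 2852 FPKM).

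Around the members, 161 further genes of the same pathways were listed in 9 lists by role; 138 were tested, 28 (20.3%) were called higher and 25 (18.1%) lower, and their median log2 change was -0.0047. The shares are near those of all genes, 18.8% and 20.3%, which are also the shares to set beside the counts of each list below. Like the members, the lists were chosen with earlier results of these data known. Of the ER chaperones and disulfide isomerases 11 of 25 were called lower and 4 higher, and of the factors of ER-associated degradation (ERAD) 11 of 21 were called higher and 1 lower, a count higher that fell to 5 after quantile normalization.

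Upstream of Atf4, the list of eIF2 kinases, eIF2 and eIF2B subunits and phosphatases had 1 of 11 tested genes called, Eif2s2 (eIF2 beta), which rose from 253 ± 17.3 to 330 ± 22.6 FPKM (log2 0.38, limma, adjusted p = 0.0314). That call was lost in each of 5 of the 6 fits without 1 library, all but the one without replicate 1 at 3 days, after quantile normalization (log2 0.13, limma, adjusted p = 0.436) and by the q-value in the authors' deposited table (0.182). The list's median log2 change was 0.12. Eif2ak3, which encodes PERK, was set aside: its library values were 8.73, 4.71 and 7.08 FPKM at 3 days and 8.59, 9.32 and 8.64 FPKM at 7 days, but the authors' deposited table gives means of 9.54 and 16.9 FPKM with a q-value of 3.13e-04. Ppp1r15a, the phosphatase subunit GADD34 that ends the eIF2 response, stood at 4.65 ± 1.22 and 4.24 ± 0.156 FPKM (log2 -0.09, limma, adjusted p = 0.712; the sign turned after quantile normalization).

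Among transcription factors and effectors of the ATF4 and CHOP branch, 2 of 11 tested (18.2%) were higher and 4 (36.4%) lower, against 18.8% and 20.3% of all genes. The median log2 change was -0.14. Atf3, an early stress factor downstream of ATF4, rose from 50.8 ± 12.2 to 99.4 ± 14.1 FPKM (log2 0.97, limma, adjusted p = 0.00831). Gdf15, a secreted stress cytokine, rose from 5.26 ± 1.01 to 8.92 ± 1.97 FPKM (log2 0.66, limma, adjusted p = 0.0315), a call lost in 5 fits that each left out 1 library. Cebpb, a C/EBP partner of ATF4 and CHOP that also drives inflammatory genes, fell from 54.5 ± 23.2 to 18.3 ± 3.94 FPKM (log2 -1.46, limma, adjusted p = 0.0101). Nupr1, a small stress-induced chromatin protein, fell from 40.9 ± 5.50 to 20.4 ± 2.85 FPKM (log2 -0.97, limma, adjusted p = 0.00252). The remaining genes called lower were low at both times. They were Ddit4 (2.18 ± 0.569 to 0.899 ± 0.371 FPKM, log2 -0.75, limma, adjusted p = 0.0333) and Tnfrsf10b (1.98 ± 0.264 to 0.578 ± 0.0627 FPKM, log2 -0.92, limma, adjusted p = 0.00492). After quantile normalization the list's balance turned, to 4 higher and 2 lower.

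Amino acid synthesis and transport genes of the ATF4 programme had 2 of 21 higher (9.52%) and 6 lower (28.6%), against 18.8% and 20.3% of all genes. Their median log2 change was -0.26. Slc7a11, the cystine importer, read 19.5, 26.3 and 20.9 FPKM at 3 days and 6.35, 6.30 and 6.76 FPKM at 7 days (log2 -1.62, limma, adjusted p = 4.28e-04). Slc7a5 (LAT1), a leucine carrier, fell from 13.5 ± 1.52 to 5.64 ± 0.465 FPKM (log2 -1.12, limma, adjusted p = 0.00114). Slc3a2 (CD98), the shared heavy chain of these carriers, fell from 202 ± 8.91 to 141 ± 8.18 FPKM (log2 -0.52, limma, adjusted p = 0.00628). Slc6a9, a glycine carrier of glia and red cell precursors, fell from 6.65 ± 4.98 to 1.78 ± 0.416 FPKM (log2 -1.28, limma, adjusted p = 0.0383). Astrocyte and erythroid marker sums, given above, were lower at 7 days too, and whether Slc6a9 follows them was not tested. The 3-day libraries of Slc6a9 read 3.79, 12.4 and 3.76 FPKM, highest in replicate 2, the library highest in neural markers. Without that library its log2 change was -0.79 (limma, adjusted p = 0.0225). It lost its call without any 1 of the 7-day libraries and after quantile normalization (0.111). The enzymes Pck2, of mitochondrial gluconeogenesis (4.996 ± 0.348 to 7.78 ± 0.632 FPKM, log2 0.55, adjusted p = 0.0148), and Psat1, of serine synthesis (30.1 ± 4.79 to 43.3 ± 2.33 FPKM, log2 0.52, adjusted p = 0.0183), rose (limma). Without replicate 1 of the 7-day libraries both enzymes lost their call (0.0589 and 0.0567), and Psat1 also without replicate 2 (0.0666) and after quantile normalization (log2 0.33, limma, adjusted p = 0.0991).

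Cytosolic tRNA synthetases, several of which ATF4 is known to raise, had 4 of 17 higher and 1 lower, with a median log2 change of 0.02. Nars rose from 83.1 ± 2.11 to 115 ± 6.90 FPKM (log2 0.46, limma, adjusted p = 0.00759) and Sars from 88.6 ± 2.19 to 120 ± 20.2 FPKM (log2 0.42, adjusted p = 0.0402). Eprs (log2 0.36, adjusted p = 0.0399) and Qars (log2 0.34, adjusted p = 0.0154) were also called higher, and Vars fell from 9.23 ± 1.37 to 6.43 ± 0.239 FPKM (log2 -0.45, adjusted p = 0.0360). These small changes depend on the scaling: after quantile normalization 0 were called higher and 2 lower. Aars (71.5 ± 6.87 to 57.3 ± 2.54 FPKM) and Iars (35.8 ± 0.683 to 27.1 ± 3.09 FPKM) were set aside, all their 7-day libraries lying below their 3-day ones. With the set-aside rows kept, 4 of the list were called higher and 3 lower. The count higher was 1 without replicate 1 at 7 days, 3 without replicate 2 at 7 days and 2 without any other single library. Vars kept its call without replicate 2 at 3 days and lost it without any other single library, at an adjusted p of up to 0.0968 (limma).

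On the IRE1 side, 1 of 5 tested partners and substrates was called, with a median log2 change of 0.11: Tmbim6 (BAX inhibitor 1), a restraint on IRE1, rose from 114 ± 10.7 to 201 ± 9.53 FPKM (log2 0.81, limma, adjusted p = 0.00162). Genes of ER entry and secretion, many of them XBP1 targets, had 2 of 21 higher and 2 lower, with a median log2 change of 0.15. The translocon subunits Sec61a1 (17.6 ± 1.63 to 9.68 ± 1.95 FPKM, log2 -0.81, adjusted p = 0.00760) and Sec61a2 (8.43 ± 1.30 to 3.02 ± 0.767 FPKM, log2 -1.24, adjusted p = 0.00334) fell. Sec62, a translocon partner, rose from 45.6 ± 1.35 to 65.4 ± 4.36 FPKM (log2 0.51, limma, adjusted p = 0.00511), and Ssr4, of the translocon-associated complex, from 22.1 ± 4.72 to 36.6 ± 6.61 FPKM (log2 0.71, limma, adjusted p = 0.0254). After quantile normalization 0 of this list were higher and 3 lower, and without replicate 1 at 3 days 4 were higher and 3 lower. With the set-aside rows kept 2 were higher and 3 lower. Ssr4 lost its call without replicate 2 (0.0885) or 3 (0.0851) of the 7-day libraries, and Sec62 lost its own after quantile normalization (0.0728). On the ATF6 side, 1 of 6 relatives and proteases was called, with a median log2 change of -0.11: Mbtps2, the site-2 protease that releases ATF6, rose from 9.18 ± 0.373 to 18.3 ± 0.918 FPKM (log2 0.92, limma, adjusted p = 0.00103). Creb3l2, of the same list, was set aside at 8.46 ± 0.755 and 3.88 ± 0.392 FPKM, its 7-day libraries all below its 3-day ones. With the set-aside rows kept, 1 gene of this list was called higher and 1 lower.

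ER chaperones and disulfide isomerases, the list nearest to Hspa5, had 11 of 25 tested genes lower and 4 higher, with a median log2 change of -0.29. In 11 of 25 (44.0%) all 7-day libraries lay below all 3-day libraries, against 28.6% of all genes. Calr (calreticulin), a calcium-binding lectin chaperone, fell from 1776 ± 294 to 1019 ± 77.9 FPKM (log2 -0.79, limma, adjusted p = 0.0139), and Pdia3, its isomerase partner, from 855 ± 167 to 465 ± 41.7 FPKM (log2 -0.86, adjusted p = 0.00958). Hyou1, a large chaperone and exchange factor for BiP, fell from 108 ± 25.1 to 56.3 ± 4.73 FPKM (log2 -0.90, adjusted p = 0.00733). Pdia4 (log2 -0.74), Manf (log2 -0.73) and Creld2 (log2 -0.85), picked out after their values were seen, fell as well (limma, adjusted p = 0.00531, 0.00378 and 0.0172). Against them Sil1, another exchange factor for BiP, rose from 24.1 ± 2.82 to 61.5 ± 6.79 FPKM (log2 1.32, adjusted p = 6.24e-04), and Txndc12, a thioredoxin-like ER protein, from 42.3 ± 2.64 to 55.6 ± 3.71 FPKM (log2 0.39, adjusted p = 0.0180). Hsp90b1 (GRP94) stood at 838 ± 103 and 692 ± 78.2 FPKM (log2 -0.27, limma, adjusted p = 0.203). Also among the 10 genes of the list not called were Sdf2l1 (log2 -0.06) and Dnajb11 (log2 -0.18; limma, adjusted p = 0.796 and 0.321).

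Summed over the 25 genes, which leave out Hspa5, the chaperone list read 5971, 4798 and 6350 FPKM at 3 days and 4236, 4185 and 4209 FPKM at 7 days, 0.738 of the 3-day mean. Replicate 2 at 3 days was again the lowest of its time. The count of lower chaperones was 7 without replicate 3 at 3 days, 7 without replicate 1 at 7 days and 6 without replicate 2 at 7 days; without replicate 2 at 3 days it was 12. Calr lost its call without replicate 1 (0.0557) or 2 (0.0545) of the 7-day libraries, and Creld2 without replicate 3 at 3 days (0.0620) or replicate 2 at 7 days (0.0593; limma, adjusted p). The count of higher chaperones was 1 after quantile normalization, 1 without replicate 1 or 2 at 7 days, and 2 without replicate 2 or 3 at 3 days or replicate 3 at 7 days. Txndc12 lost its call without replicate 1 (0.0547) or 2 (0.0686) of the 7-day libraries and after quantile normalization (0.246). The ER stress response element shown in the Hspa5 promoter stood in 5 of the 20 chaperone promoters available, those of Hsp90b1, Calr, Canx, Pdia6 and Creld2, of which Calr, Pdia6 and Creld2 were called lower and Hsp90b1 and Canx were not called. Outside this list it stood in Syvn1, in Derl3, which had no row, and in Dnajc3, a co-chaperone of BiP in the list of ER entry. Dnajc3 was higher in all 7-day libraries (76.6 to 83.2 FPKM) than in the 3-day ones (48.6 to 71.5 FPKM) but not called (log2 0.38, limma, adjusted p = 0.0719).

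ERAD genes had 11 of 21 tested higher and 1 lower, with a median log2 change of 0.35. In 14 of 21 (66.7%) all 7-day libraries lay above all 3-day libraries, against 26.8% of all genes. Os9, a lectin that picks out misfolded glycoproteins, rose from 144 ± 25.02 to 342 ± 52.4 FPKM (log2 1.24, limma, adjusted p = 0.00184). Edem1, Edem2 and Edem3, the mannosidase-like proteins that mark glycoproteins for removal, rose with log2 changes of 0.56, 0.79 and 0.62 (limma, adjusted p = 0.0188, 0.00285 and 0.00921). Derl1, a channel subunit, rose from 42.0 ± 2.53 to 53.8 ± 5.94 FPKM (log2 0.35, adjusted p = 0.0401). Syvn1, the ubiquitin ligase HRD1 with the same element as Hspa5 in its promoter, fell from 13.5 ± 1.88 to 8.76 ± 0.896 FPKM (log2 -0.56, adjusted p = 0.0176). The ERAD sum was 1139, 969 and 1067 FPKM at 3 days and 1451, 1404 and 1351 FPKM at 7 days. The count of higher ERAD genes was 7 by the authors' q-values, 5 after quantile normalization and 5 without replicate 2 at 7 days. Edem1 lost its call in both of the last, and also without replicate 3 at 7 days (0.0554). Derl1 lost its call in each fit without 1 library but the one without replicate 1 at 7 days, and Syvn1 without replicate 3 at 3 days (0.0569) or replicate 1 at 7 days (0.0619).

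**Figure D4:**
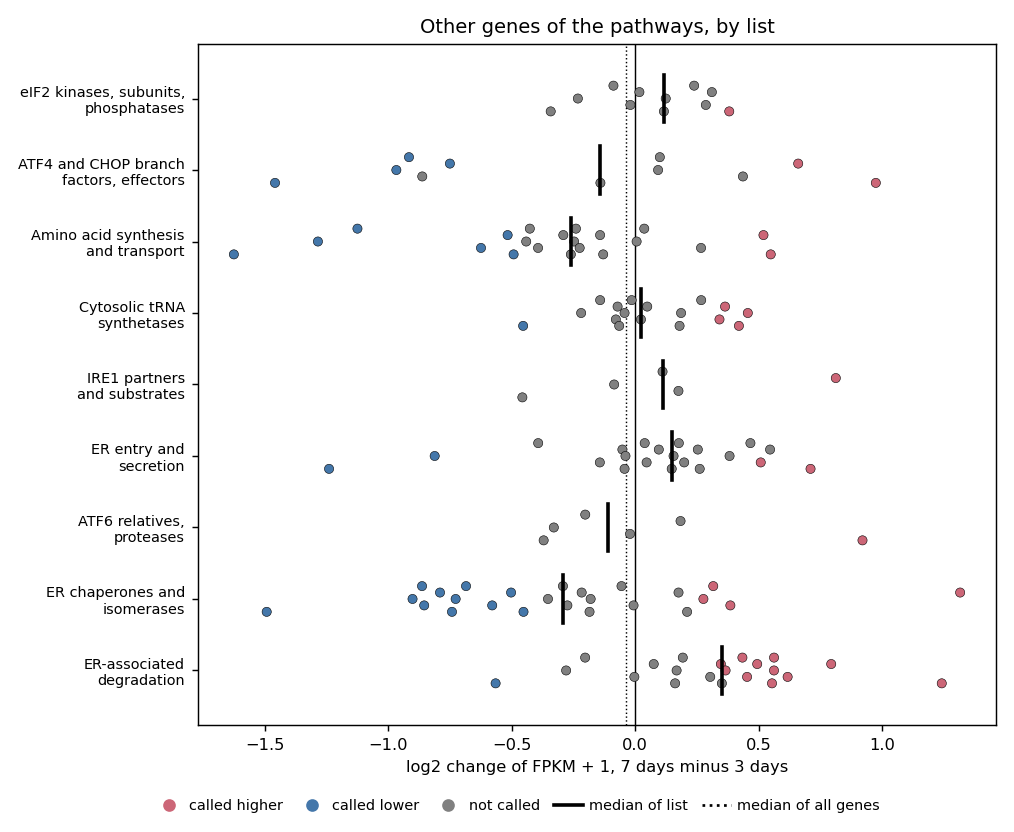
Each point is 1 tested gene of a related list, placed by its fitted change in log2 of FPKM + 1, 7 days minus 3 days (n = 3 against 3 libraries), with colours for the limma call, a bar at the list median and a dotted line at the median of all genes (-0.04). The chaperone list has its median at -0.29 with 11 genes called lower, and the ERAD list at 0.35 with 11 called higher; after quantile normalization the latter count is 5.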

How the data were processed

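RNA from RiboTag immunoprecipitates was measured by RNA-seq in 6 libraries. The submitters' processing notes name TopHat2 2.0.12, Cufflinks 2.2, Cuffdiff 2.2.1 and mm10, with no role or order. The authors deposited FPKM per gene and library, their mean FPKM per time, a log2 fold change, a test statistic (a score) and a p-value and q-value, per the file headers. How libraries were scaled to each other, and the reads behind a gene, are not given in the sources used here, so no counting interval is given.

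Of 13960 rows, 918 were set aside: 45 not marked OK by the authors' test, 838 in which the mean of the 3 libraries lies more than 1% from the deposited mean, 14 at 0 beside 100 FPKM or more, and 32 of repeated symbols, some for several reasons. The other 13042 were tested with limma 3.58.1 (R 4.3.3), mean-dependent prior, without a filter on low values, and the script was tested on simulated data. Python 3.11.15 did the rest. Named related genes were, per list and direction, the 2 called with the largest change whose larger group mean reached 5 FPKM. A further 14 were named after their values were seen. Outside both groups, some genes are given because they were set aside, carry a promoter element or stand beside named genes of their list. These too were picked after their values were seen. The members and lists were chosen with earlier results of these data known. Alternatives covered the pseudocount, a low-value filter, scaling, the prior, the table used, the rows set aside, a replicate block, each library left out, and the authors' q-value.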

Additional observations from a re-analysis of the deposited data

How the results depend on the processing

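Of the members, 1 was called higher and 1 lower. The count higher was 2 after quantile normalization and 0 to 2 with 1 library left out. The count lower was 3 after quantile normalization and 2 by the authors' q-value; it was 0 with libraries centred on the median gene, with a replicate block, without the mean-dependent prior and with the set-aside rows kept, and 0 to 1 with 1 library left out. Neither Ddit3 nor Asns changed direction in any of the 16 alternatives. Of related genes, 28 were called higher, 14 after quantile normalization and 14 to 27 with 1 library left out. The count lower was 25, and 16 to 25 with 1 library left out. With the set-aside rows kept 28 were higher and 29 lower, and by the authors' q-value 23 and 26. Of the 25 related genes named by rule and called, 12 lost their call in some alternative and 0 reversed. Over all genes, 2453 were higher and 2645 lower; leaving out 1 library gave 1572 to 2207 and 1697 to 2565, both lowest without replicate 2 at 7 days, and the filtered table alone, where 9489 genes were tested, gave 2359 and 1419. Centring gave 2920 and 2321. Which of these scalings fits the cells best was not tested.

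Replicate numbers are shared by the times in the labels. Correlations of same-numbered libraries' deviations from their group means were 0.0995, 0.0054 and 0.0047, and of the 3-day libraries only replicate 1 correlated best with its own number, so the numbers were not taken to pair libraries. With the replicate block 2450 genes were higher and 2425 lower, 27 and 24 of the related genes, and among the members 1 was higher and 0 lower (Asns, limma, adjusted p = 0.0640).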
